A study of Mus musculus with 24 samples.

Results

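The receptors for the constant part of immunoglobulin G (IgG) were followed in mouse brain tissue at 5 days after traumatic brain injury (TBI). Genes were taken by symbol, Fcgr1, Fcgr2b, Fcgr3, Fcgr4, Fcer1g and Fcgrt, which makes 6 of the 36333 genes in the deposited table. All 6 were also among the 17267 genes that were tested, whose level averaged 0.5 TPM or more over the 24 libraries. TPM counts the transcripts of a gene among 1000000 transcripts, after correction for length. The labels give males of 12 to 16 weeks of strain C57BL6N, whereas the methods give the study's mice as C57BL/6JRj with a lower upper age, and each mouse gave 1 library. TBI was made by controlled cortical impact (CCI), in which a piston strikes the exposed cortex, and 4 groups of 5 injured mice differed in treatment. Vehicle mice received neither drug. PLX3397 mice ate chow with 290 mg/kg of PLX3397, an inhibitor of the CSF1 receptor kinase on which microglia depend, starting 90 min after the impact. Anakinra mice received 100 mg/kg of Anakinra, a recombinant antagonist of the interleukin-1 receptor IL1R1, under the skin at 5 min, 24 h, 48 h and 72 h. PLX3397+Anakinra mice received both. The 4 Sham mice were operated on without an impact and, per the methods, without a craniotomy, so that the comparison with Sham holds the opening of the skull as well as the impact. Cortex is the tissue given in the labels, and the methods add striatum, dorsal hippocampus and thalamus from the same quadrant.

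Fc gamma receptors recognise antibody bound to a target and set off uptake or activation of the cell that carries them. Fcgr1, Fcgr3 and Fcgr4 encode the activating receptors FcγRI, FcγRIII and FcγRIV, which signal through the common gamma chain encoded by Fcer1g and its activation motif (ITAM), whereas Fcgr2b encodes FcγRIIB, which carries an inhibitory motif (ITIM) and restrains them. Fcgrt encodes the neonatal receptor FcRn, a relative of MHC class I that pairs with β2-microglobulin and returns IgG from endosomes, also in endothelium, while in brain the other chains are carried mainly by microglia and macrophages.

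Fcgr2b, Fcgr4, Fcgr3 and Fcer1g lie close together on chromosome 1 in GENCODE's annotation of GRCm38. Fcgr2b spans chr1:170958617-170976547 on the minus strand, Fcgr4 chr1:171018920-171029761 on the plus strand, Fcgr3 chr1:171051174-171064935 on the minus strand and Fcer1g chr1:171229572-171234365 on the minus strand. Fcgr1 lies apart at chr3:96282909-96293969 and Fcgrt at chr7:45092990-45103851, both on the minus strand. All 6 are protein-coding. Fcgr2b and Fcgr3 are close relatives, and 7.38% of the 75-base stretches of the Fcgr3 transcript also occurred in Fcgr2b, while no 150-base stretch of any of the 6 occurred in another gene. How reads that fit more than 1 gene were counted is not given in the sources used here, so a part of the reads of Fcgr2b and Fcgr3 is uncertain. Fcgr2b and Fcgrt each overlap an annotated antisense gene, Gm38204 and Gm45669, and since the library preparation is not stated to mark strand, reads of the pairs cannot be told apart there.

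Promoters of the 6 genes were searched over the 250 bases before the RefSeq start, on both strands, for 3 short motifs of myeloid and interferon-responsive genes. The motifs were the core of the PU.1 box (GAGGAA, read as TTCCTC on the other strand), the GAS element (TTCNNNGAA) and the core of the ISRE (GAAANNGAA). The PU.1 box core was found in Fcgr1, Fcgr3 and Fcgr4, the 3 activating IgG-binding receptors, and not in Fcgr2b, Fcer1g or Fcgrt, and 23.3% of all 32851 promoters of this length held it. The GAS element was found in Fcgr1 (7.02% of all promoters) and the ISRE core in Fcgr4 (7.13%). A match is a run of letters and not a measured binding site. The matches are shown with their flanks in GRCm38.p6, from RefSeq, in the direction of the gene, with the motif in capitals, since these are the matches found among the 6 genes. No match overlapped another. RefSeq lists 2 nearby starts for Fcgr3, and the window shown ends at the downstream one. Both searched stretches of Fcgr3 lie inside its GENCODE span, well away from the outer end at chr1:171064935. The bases before that end were not searched, so the match holds for the RefSeq starts only. For Fcgr2b the searched stretch also lies inside the span, near its outer end.
Fcgr1 PU.1 box core, chr3:96293999-96294044: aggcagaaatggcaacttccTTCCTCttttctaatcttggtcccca
Fcgr3 PU.1 box core, chr1:171059395-171059429: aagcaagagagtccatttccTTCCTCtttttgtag
Fcgr4 PU.1 box core, chr1:171018884-171018925: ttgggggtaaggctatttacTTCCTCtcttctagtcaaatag
Fcgr1 GAS element, chr3:96294050-96294098: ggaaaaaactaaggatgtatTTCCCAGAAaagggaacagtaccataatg
Fcgr4 ISRE core, chr1:171018833-171018881: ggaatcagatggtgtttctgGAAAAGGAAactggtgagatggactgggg

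The tissue carried the markers of the cell types that can hold these receptors. The summed level of 9 microglial markers was 1418 TPM ± 152 (SD, n = 5) in Vehicle and 339.1 ± 7.90 (n = 4) in Sham, and neuronal and astrocytic markers were abundant in every group. Natural killer and B cell markers were low, at a summed 0.596 to 4.19 TPM for 5 NK genes and 2.66 to 12.9 TPM for 7 B and plasma cell genes. Depth is unknown because TPM alone were deposited, and 22160 to 23249 genes were above 0 per library. Libraries of 1 group correlated at r = 0.9876 to 0.9955 on log2(TPM + 1), and no libraries held identical values. In bulk tissue, fewer cells of a type and less RNA per cell cannot be told apart.

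All 6 genes were higher in injured Vehicle mice than in Sham mice at 5 days. The rise was largest in TPM for Fcer1g, the shared signalling chain, and smallest in proportion for Fcgrt. All 6 passed the test (limma on log2(TPM + 1), Benjamini-Hochberg adjusted p over all genes tested), where 26.6% of all genes tested were called higher, and in all 6 every Vehicle mouse lay above every Sham mouse, as 21.7% of all genes did. The study's limits (unadjusted p below 0.05, ratio of mean TPM above 2, difference above 4 TPM) were applied with the p of limma, not that of the study's tests. By these limits 5 of the 6 were higher beside 5.11% of all genes, Fcgrt being the exception at a ratio of 1.76.

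Fcer1g was listed at 26.1, 26.6, 22.5 and 33.0 TPM in the 4 Sham mice and at 313, 250.2, 369.9, 379.2 and 308.3 TPM in the 5 Vehicle mice. The groups lay far apart, with a mean of 27.0 TPM ± 4.36 (SD, n = 4) against 324.1 ± 52.4 (n = 5), a 12.0-fold ratio. The log2 fold change was 3.53 ± 0.13 (SE, adjusted p = 8.7e-17). Fcer1g thereby stood above 97.2% of all genes tested in Vehicle, against 61.2% in Sham.

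Fcgr3, the low-affinity activating receptor, was the most abundant IgG-binding chain in both groups. It was listed at 13.1, 12.7, 12.99 and 15.9 TPM in Sham and at 79.3, 71.3, 96.0, 96.6 and 85.9 TPM in Vehicle, with no overlap (log2 fold change 2.56 ± 0.13, adjusted p = 2.49e-14). Fcgr1, the high-affinity receptor, had 3.46, 3.04, 3.00 and 3.53 TPM in Sham and 27.6, 23.5, 31.1, 31.9 and 29.2 TPM in Vehicle (log2 fold change 2.80 ± 0.13, adjusted p = 6.3e-15). Fcgr4 was close to absent in Sham, listed at 0 in mouse J08 and at 0.227, 0.300 and 0.352 TPM in the others, and reached 17.1, 9.63, 16.3, 17.7 and 14.1 TPM in Vehicle. Its log2 fold change of 3.69 ± 0.17 (adjusted p = 7.24e-15) is on the scale of TPM + 1, which understates the change of a gene this low in Sham.

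Fcgr2b, the inhibitory receptor, was listed at 3.40, 3.95, 4.86 and 4.13 TPM in Sham and at 56.3, 35.8, 63.3, 62.5 and 58.1 TPM in Vehicle. Mouse J17B was the lowest Vehicle mouse for Fcgr2b, as for each of the other 5 genes, and was still above every Sham mouse. The ratio of mean TPM was 13.5 for Fcgr2b (log2 fold change 3.45 ± 0.15, adjusted p = 3.13e-15). Fcgrt moved far less, from 27.5, 27.4, 27.9 and 32.1 TPM in Sham to 47.7, 43.1, 54.9, 57.4 and 49.6 TPM in Vehicle (log2 fold change 0.79 ± 0.10, adjusted p = 1.86e-07).

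**Figure D1:**
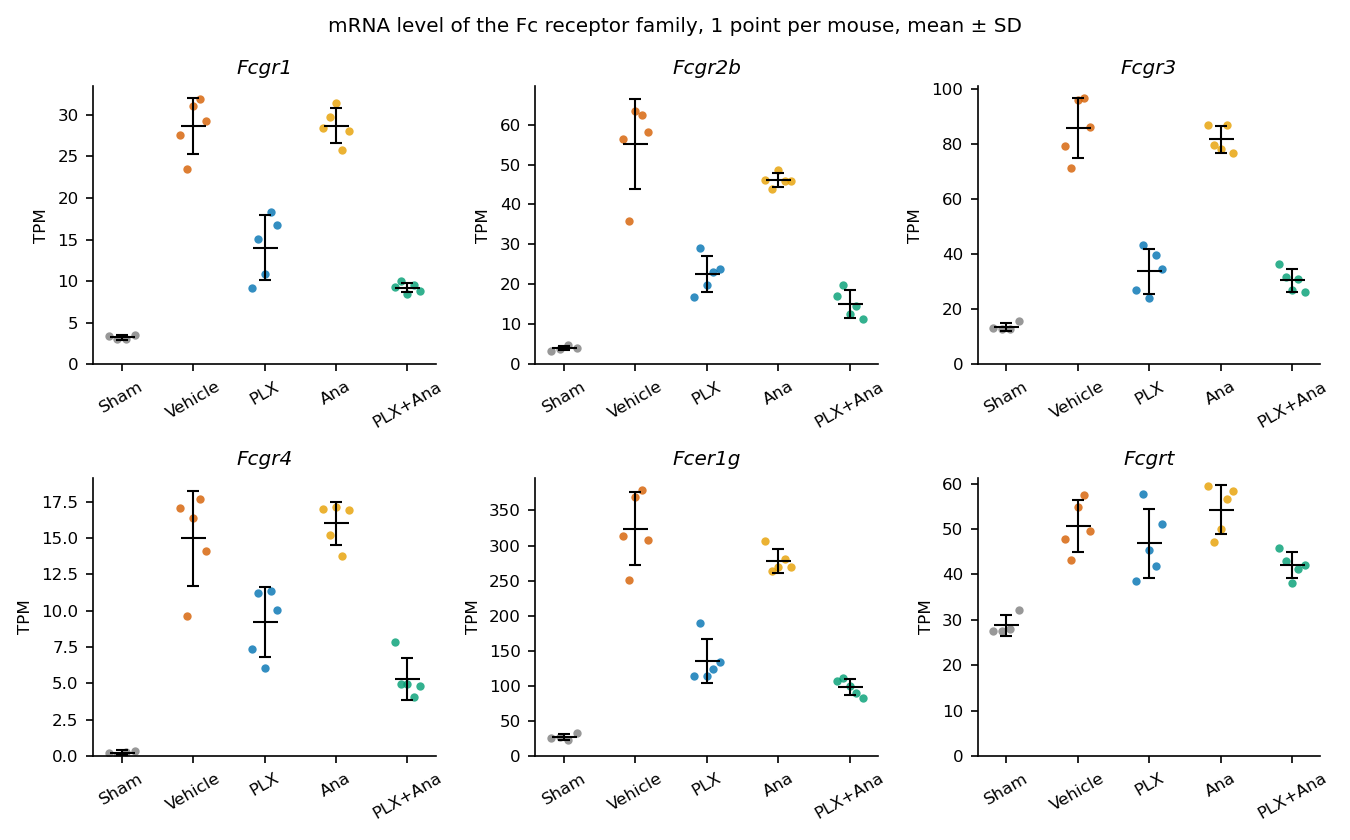
TPM (linear axis from 0) of each of the 6 genes in every mouse of the 5 groups, with 1 point per mouse and the mean ± SD as bars. PLX and Ana stand for PLX3397 and Anakinra. For Fcer1g the Sham mice sit at 22.5 to 33.0 TPM, the Vehicle mice at 250.2 to 379.2 and the PLX3397+Anakinra mice at 83.0 to 111.2, whereas the Fcgrt mice of each drug group overlap with Vehicle.

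All 6 genes were also above Sham in each drug group, with no overlap of mice. Genes called higher than Sham made up 22.7% of all genes under PLX3397, 25.1% under Anakinra and 20.7% under PLX3397+Anakinra, and genes higher with no overlap made up 18.7%, 21.3% and 16.9%. These comparisons share the 4 Sham mice. The level left above Sham in the PLX3397+Anakinra group was smallest for Fcgrt (log2 fold change 0.53 ± 0.10, adjusted p = 9.58e-05) and Fcgr3 (1.10 ± 0.13, adjusted p = 2.58e-07), and largest for Fcgr4 (2.35 ± 0.17, adjusted p = 1.23e-10).

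Under PLX3397, 5 of the 6 genes were lower than in Vehicle. Fcgr1, Fcgr2b, Fcgr3, Fcgr4 and Fcer1g passed the test and Fcgrt did not, while 6.66% of all genes were called lower. In 4 of them, all but Fcgr4, every PLX3397 mouse lay below every Vehicle mouse (4.91% of all genes), and the same number met the study's limits (0.932% of all genes).

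Fcer1g had 113.9, 189.0, 114.6, 123.3 and 134.3 TPM in the 5 PLX3397 mice. Mouse J02 was the highest of them and still under the lowest Vehicle mouse, and the mean of 135.0 ± 31.3 TPM was 2.40-fold lower than in Vehicle (log2 fold change -1.27 ± 0.12, adjusted p = 8.02e-08). Fcgr3 had 26.8, 43.4, 24.2, 39.5 and 34.7 TPM and showed the largest drop (log2 fold change -1.35 ± 0.12, adjusted p = 2.89e-08). Fcgr2b had 16.98, 29.1, 19.9, 23.1 and 23.8 TPM (-1.25 ± 0.15, adjusted p = 1.11e-06).

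Among the activating receptors, Fcgr1 and Fcgr4 kept more of their level under PLX3397. Fcgr1 had 9.17, 15.1, 10.8, 18.3 and 16.8 TPM, which was 2.04-fold lower than in Vehicle (log2 fold change -1.01 ± 0.12, adjusted p = 1.84e-06). Fcgr4 had 7.32, 11.2, 6.03, 11.4 and 10.1 TPM, so that 3 PLX3397 mice reached above the lowest Vehicle mouse, J17B. Its difference was the smallest of the called ones (-0.65 ± 0.16, adjusted p = 0.00995), and it missed the threshold with a pseudocount of 0.1 (adjusted p = 0.128) or with only the compared groups in the fit (adjusted p = 0.0563). Fcgrt had 38.5, 57.6, 45.3, 41.8 and 51.1 TPM, with mice of the 2 groups interleaved, and its log2 fold change of -0.11 had a 95% confidence interval of -0.30 to 0.07 (adjusted p = 0.506).

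Under Anakinra alone none of the 6 genes passed the test against Vehicle. None was called in either direction by limma, beside 0.0463% of all genes called lower. None had an unadjusted p below 0.05 either, beside 2148 of the 17267 genes tested, counting both directions. Fcgr1 had 28.5, 29.7, 31.4, 25.8 and 28.1 TPM under Anakinra, all within the Vehicle range, and its log2 fold change of 0.01 had an interval of -0.25 to 0.26. The intervals were -0.32 to 0.19 for Fcgr3, -0.22 to 0.45 for Fcgr4 and -0.09 to 0.29 for Fcgrt. Fcgr2b (46.2, 43.8, 48.6, 45.8 and 45.9 TPM) and Fcer1g (306.2, 263.6, 268.9, 280.9 and 269.1 TPM) had the lowest estimates, at -0.23 (interval -0.53 to 0.07) and -0.21 (-0.46 to 0.05). A drop of the size seen under PLX3397 therefore lies outside the interval for each of the 5 genes that PLX3397 lowered.

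**Figure D2:**
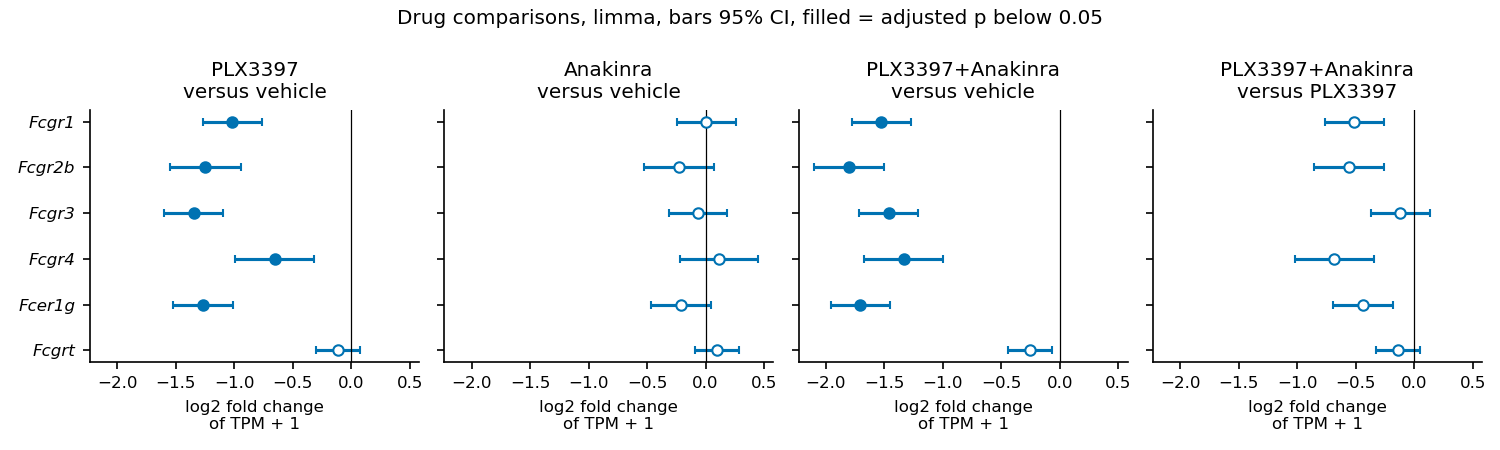
Log2 fold change of TPM + 1 (x axis) of each gene in 4 drug comparisons, with the 95% confidence interval from limma as bars and filled points where the adjusted p was below 0.05. Filled points fill the PLX3397 and PLX3397+Anakinra panels apart from Fcgrt, and all points are open in the Anakinra panel and in the panel of PLX3397+Anakinra against PLX3397.

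The combined treatment gave the lowest mean of all injured groups for each of the 6 genes. Against Vehicle, 5 of the 6 were called lower, beside 9.6% of all genes, and in these 5 every PLX3397+Anakinra mouse lay below every Vehicle mouse (6.62% of all genes) and the study's limits were met (1.55% of all genes). Comparisons of the 3 drug groups with Vehicle share the 5 Vehicle mice.

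Fcgr2b had the largest drop under the combination. It was listed at 17.01, 19.9, 12.5, 14.5 and 11.4 TPM, a mean of 15.1 ± 3.44 (SD, n = 5), which was 3.67-fold lower than in Vehicle (log2 fold change -1.81 ± 0.15, adjusted p = 1.45e-09). Fcer1g had 106.7, 111.2, 99.8, 90.4 and 83.0 TPM, 3.30-fold lower than in Vehicle (-1.70 ± 0.12, adjusted p = 2.93e-10). Fcgr1 had 9.35, 9.998, 8.49, 9.52 and 8.86 TPM, a narrow range far below every Vehicle mouse, and was 3.10-fold lower (-1.53 ± 0.12, adjusted p = 1.4e-09).

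The other activating receptors had smaller estimates under the combination, that of Fcgr3 being close to that of Fcgr1. Differences between genes were not tested. Fcgr3 had 36.5, 31.7, 26.9, 31.0 and 26.3 TPM (log2 fold change against Vehicle -1.46 ± 0.12, adjusted p = 2.36e-09). Fcgr4 had 7.81, 4.92, 4.95, 4.07 and 4.82 TPM (-1.34 ± 0.16, adjusted p = 1.14e-06), with mouse J03 apart from the other 4. Fcgrt had 45.8, 43.0, 38.1, 41.1 and 42.1 TPM, of which 1, J03, lay above the lowest Vehicle mouse, and its log2 fold change of -0.26 ± 0.09 missed the threshold (adjusted p = 0.0534, unadjusted p = 0.00962). Fcgrt passed in 4 of the alternatives, for example without Vehicle mouse J17B (-0.31, adjusted p = 0.0184).

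Adding Anakinra to PLX3397 moved no gene past the threshold. By limma 0 of the 6 had an adjusted p below 0.05, beside 0.145% of all genes called lower, and 4 of the 6 were lower at an unadjusted p below 0.05, beside 3.78% of all genes. The estimates were -0.68 for Fcgr4 (95% interval -1.02 to -0.35, adjusted p = 0.114), -0.56 for Fcgr2b (-0.86 to -0.26, adjusted p = 0.146), -0.51 for Fcgr1 (-0.77 to -0.26, adjusted p = 0.114) and -0.44 for Fcer1g (-0.69 to -0.18, adjusted p = 0.212). Fcer1g was the 1 gene whose mice did not overlap between the groups, beside 0.764% of all genes lower with no overlap. Fcgr3 differed little, at -0.12 (-0.37 to 0.13, adjusted p = 0.924), and its PLX3397 and PLX3397+Anakinra mice were interleaved. Leaving out PLX3397 mouse J01 brought Fcgr1 (-0.64, adjusted p = 0.0029) and Fcgr2b (-0.65, adjusted p = 0.0453) past the threshold, and leaving out PLX3397 mouse J12 or PLX3397+Anakinra mouse J03 brought Fcgr4 past it (-0.81 in both, adjusted p = 0.032 and 0.0246).

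The interaction asked whether Anakinra acted differently with and without PLX3397. No member was called by limma (0% of all genes were called lower), and 2 of the 6 had a negative estimate with an unadjusted p below 0.05, beside 4.22% of all genes. These were Fcgr4, at -0.80 on the log2 scale (95% interval -1.27 to -0.32, adjusted p = 0.379), and Fcgr1, at -0.52 (-0.88 to -0.16, adjusted p = 0.449). For Fcgr3 the estimate was -0.05, with an interval from -0.41 to 0.30.

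Adding PLX3397 to Anakinra lowered all 6 genes, beside 8.1% of all genes, and in each of them the groups did not overlap (7.26% of all genes). Fcgrt was among them here, at 47.1 to 59.4 TPM under Anakinra and 38.1 to 45.8 TPM under both (log2 fold change -0.36 ± 0.09, adjusted p = 0.00938). The other 5 fell by between 1.40 (Fcgr3) and 1.58 (Fcgr2b) on the log2 scale. Between the single drugs, 5 of the 6 were lower under PLX3397 than under Anakinra, beside 5.41% of all genes, and Fcgrt was not called (-0.22, interval -0.40 to -0.03, adjusted p = 0.178). It passed without PLX3397 mouse J02 (-0.29, adjusted p = 0.0387).

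The part of the injury rise left in each drug group was expressed in percent, where 0 is the Sham mean and 100 is the Vehicle mean. Under PLX3397 it was smallest for Fcgr3, at 27.8% ± 11.3 (SD, n = 5), and largest among the signalling receptors for Fcgr4, at 60.9% ± 16.2. Fcgr2b (36.2% ± 8.92), Fcer1g (36.4% ± 10.5) and Fcgr1 (42.4% ± 15.3) lay between them, less than 1 SD apart. Under the combination Fcgr1, Fcgr2b, Fcgr3 and Fcer1g all came to between 21.5% and 24.0%, with Fcgr4 at 34.5% ± 9.77 and Fcgrt at 60.9% ± 12.9. Under Anakinra the 6 genes kept between 82.1% (Fcgr2b) and 117.0% (Fcgrt). On the log2(TPM + 1) scale the same shares were higher, at 47.4% for Fcgr3 and 82.3% for Fcgr4 under PLX3397. Under the combination they were 42.9% for Fcgr3, 45.4% for Fcgr1, 47.6% for Fcgr2b, 51.8% for Fcer1g and 63.8% for Fcgr4.

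**Figure D3:**
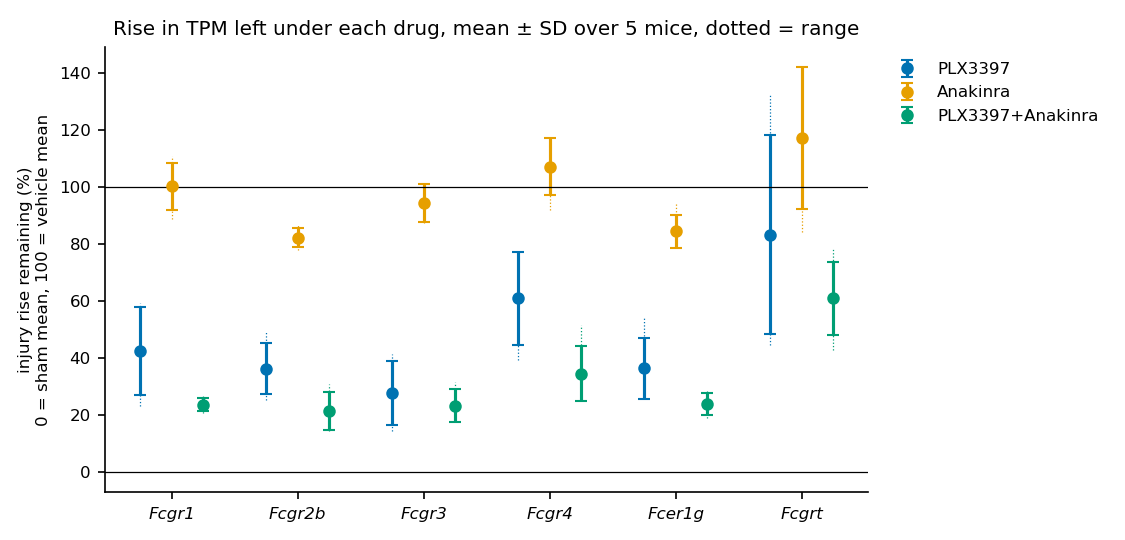
Percent of the rise in TPM between the Sham mean (0) and the Vehicle mean (100) that was left in each drug group, by gene, as mean ± SD over 5 mice with the range dotted. PLX3397 leaves 27.8% of the rise of Fcgr3 and 60.9% of that of Fcgr4, and PLX3397+Anakinra leaves 21.5% to 34.5% for all genes but Fcgrt.

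The makeup of the IgG-binding chains is given as a description, since the shares themselves were not tested. TPM is a level per transcript length, so the 4 chains could be added, and their sum was 21.2 TPM ± 1.89 in Sham, 184.7 ± 27.7 in Vehicle, 79.5 ± 17.9 under PLX3397, 172.4 ± 4.61 under Anakinra and 60.1 ± 8.43 under both. Fcgr3 made up 64.3% ± 2.12 of the sum in Sham and 46.7% ± 2.54 in Vehicle, with no overlap of mice. The inhibitory Fcgr2b went from 19.3% ± 2.84 to 29.7% ± 2.37 and Fcgr4 from 1.005% ± 0.687 to 8.05% ± 0.983. Fcgr1 stayed at 15.4% ± 1.28 and 15.6% ± 0.671. Under PLX3397 Fcgr4 reached 11.5% ± 0.967 of the sum, its highest mean share, and under PLX3397+Anakinra Fcgr3 made up 50.8% ± 1.82 and Fcgr2b 24.9% ± 2.93.

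**Figure D4:**
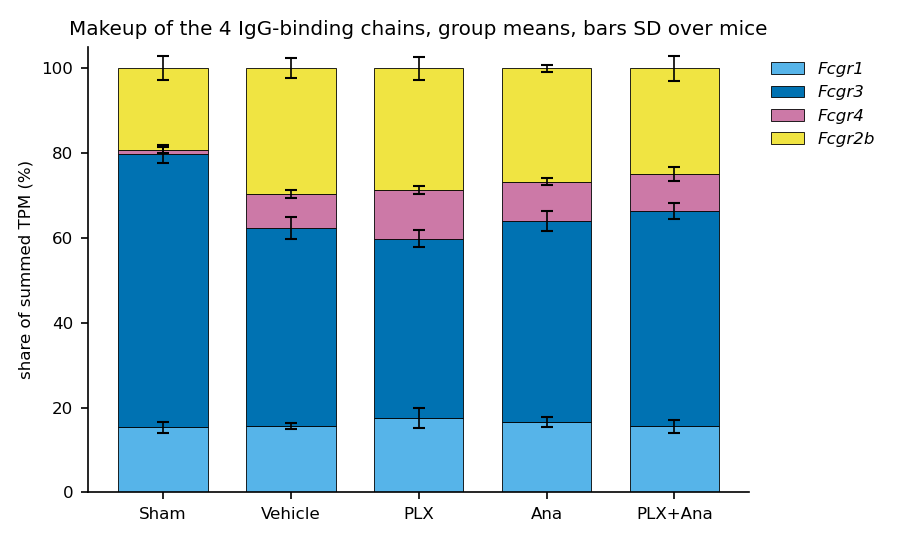
Share (%) of each IgG-binding chain in the summed TPM of Fcgr1, Fcgr3, Fcgr4 and Fcgr2b, as stacked group means with the SD over mice at the top of each segment. Fcgr3 takes 64.3% in Sham and 46.7% in Vehicle, while Fcgr4 grows from 1.005% to 8.05%.

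Ratios of an activating receptor to Fcgr2b within a library do not depend on scaling, and 20 of them were compared by an exact two-sided permutation of mice, with p adjusted over the 20. None reached an adjusted p below 0.05. With 20 tests in so few mice, no single ratio could pass unless several others also had the smallest p possible. The smallest p that these group sizes allow is 0.00794, and it was reached by Fcgr3/Fcgr2b in Vehicle against Sham (log2 difference -1.09, exact p = 0.00794, adjusted p = 0.0635) and by Fcgr4/Fcgr2b in PLX3397 against Vehicle (0.57, exact p = 0.00794, adjusted p = 0.0635). The ratio of TPM of Fcgr3 to Fcgr2b was 3.40 ± 0.568 in Sham, 1.59 ± 0.232 in Vehicle, 1.49 ± 0.181 under PLX3397, 1.77 ± 0.127 under Anakinra and 2.07 ± 0.272 under both. Its difference between PLX3397+Anakinra and PLX3397 was 0.47 on the log2 scale (exact p = 0.0159, adjusted p = 0.0635). Without PLX3397+Anakinra mouse J04 this difference passed (0.56, exact p = 0.00794, adjusted p = 0.0397). That p is the smallest possible, so the pass rests on other ratios having it too. The ratio of Fcgr4 to Fcgr2b was 0.271 ± 0.0231 in Vehicle, 0.406 ± 0.0692 under PLX3397 and 0.347 ± 0.0277 under Anakinra. All 5 PLX3397 mice lay above the highest Vehicle mouse for this ratio, the lowest of them by a narrow margin (0.3031 against 0.303).

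The gamma chain was compared with the receptors it serves. Fcer1g stood at 1.57 ± 0.142 TPM per summed TPM of Fcgr1, Fcgr3 and Fcgr4 in Sham and at 2.50 ± 0.0993 in Vehicle, with 2.42 ± 0.428 under PLX3397, 2.20 ± 0.0829 under Anakinra and 2.19 ± 0.223 under both. The Sham mice, at 1.38 to 1.69, lay below every Vehicle mouse, at 2.385 to 2.593.

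The IgG-binding chains moved with the markers of microglia. All 9 microglial markers were called lower by PLX3397 and by PLX3397+Anakinra against Vehicle and none by Anakinra, and their sum was 612.1 TPM ± 108 under PLX3397, 1389 ± 67.9 under Anakinra and 555.1 ± 61.1 under both. Per 100 TPM of these markers, the 4 chains together came to 6.26 ± 0.502 TPM in Sham, 12.99 ± 1.02 in Vehicle, 12.95 ± 1.62 under PLX3397, 12.4 ± 0.513 under Anakinra and 10.8 ± 0.633 under both. Fcgr4 came to 1.05 ± 0.204 in Vehicle, 1.49 ± 0.265 under PLX3397 and 0.953 ± 0.196 under both on this scale, and Fcgr2b to 3.87 ± 0.561, 3.69 ± 0.349 and 2.70 ± 0.421. Fcgrt went the other way on this scale, with 8.47 ± 0.630 in Sham, 3.57 ± 0.160 in Vehicle and 7.72 ± 0.996 under PLX3397. Its own mean was 28.7, 50.5 and 46.9 TPM in these groups, so the marker sum moved more than Fcgrt did. The part of microglial number in these values was not tested.

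**Figure D5:**
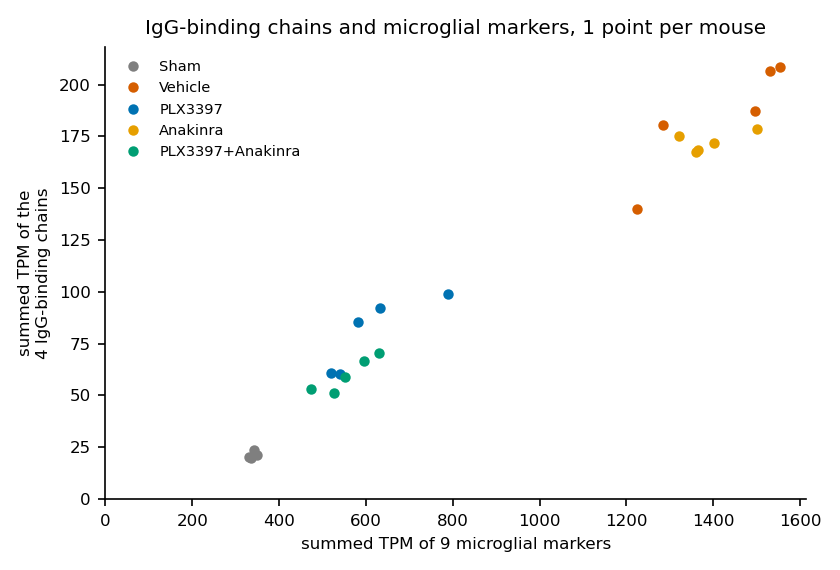
Summed TPM of Fcgr1, Fcgr2b, Fcgr3 and Fcgr4 (y axis) against the summed TPM of 9 microglial markers (x axis), with 1 point per mouse in the colour of its group. Sham mice sit at the lower left, both groups with PLX3397 between 51.3 and 98.8 TPM of the chains, and Vehicle and Anakinra mice between 140.1 and 208.7.

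Markers of other cell types moved with some of the same comparisons. Of 7 markers of border-associated macrophages, 6 were lower under PLX3397 and 6 under PLX3397+Anakinra than in Vehicle, and their sum was 120.5 TPM ± 33.0 in Vehicle, 52.8 ± 14.4 under PLX3397, 91.7 ± 13.4 under Anakinra and 15.8 ± 2.87 under both, against 12.9 ± 1.52 in Sham. Between PLX3397+Anakinra and PLX3397, 3 of these 7 were lower. Of 6 tested markers of monocytes and infiltrating macrophages, 2 were lower under PLX3397 and 4 under the combination, although the sum of the list, carried by Fn1, ranged from 57.7 to 152.1 TPM in Vehicle, from 89.7 to 162.2 under PLX3397 and from 95.9 to 147.2 under both. Of 4 tested neutrophil markers, 2 were lower under PLX3397 and 2 under the combination, S100a8 and S100a9 not among them. Mmp8, a neutrophil collagenase named after its values were seen, was the 1 of the 4 that was also lower under Anakinra than in Vehicle (-0.65 ± 0.11, adjusted p = 0.02) and under both than under PLX3397 (-1.02 ± 0.11, adjusted p = 2.18e-05). Ly6g, a defining neutrophil marker, had a mean of 0.0289 TPM in Vehicle. Endothelial markers, which bear on Fcgrt, were called in 0 of 6 in each drug comparison with Vehicle and were higher in 4 of 6 in Vehicle against Sham. Markers of red blood cells, listed to check the tissue and not as carriers of Fc receptors, were lower in 5 of 5 under PLX3397 and under both. The part of these cells in the receptor values was not tested.

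The ligands of the receptors were hardly measured. Of 16 immunoglobulin and pentraxin genes, 13 were listed at 0 in all 24 libraries, among them every heavy chain constant gene (Ighg1, Ighg2b, Ighg2c, Ighg3, Ighm, Ighd, Igha and Ighe), and only Jchain and Ptx3 passed the filter. A gene at 0 in every library cannot be told apart from a gene whose reads were not counted. The zeros are therefore not read as absence of immunoglobulin RNA. Ptx3, a pentraxin that binds Fc gamma receptors, rose from 0.287 TPM ± 0.0874 in Sham to 6.80 ± 0.874 in Vehicle (log2 fold change 2.60 ± 0.17, adjusted p = 2.81e-12) and was not called in any drug group against Vehicle, at -0.02 under PLX3397 and -0.43 under both (adjusted p = 0.949 and 0.0654). B2m, the light chain that FcRn needs, rose from 235.0 ± 16.5 to 942.8 ± 77.0 TPM (2.00 ± 0.10, adjusted p = 1.95e-14) and fell to 604.2 ± 92.5 under PLX3397 (-0.65 ± 0.09, adjusted p = 2.3e-05) and 523.9 ± 77.5 under both (-0.86 ± 0.09, adjusted p = 1.8e-07). Fcgrt itself passed in neither of these drug comparisons.

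Other Fc and Fc-like receptors were mostly too low to test. Of 13 genes 5 were tested, and 3 were higher in Vehicle than in Sham. Fcrls, an Fc receptor-like gene of microglia, went from 24.2 ± 3.04 TPM in Sham to 276.9 ± 43.9 in Vehicle (log2 fold change 3.46 ± 0.13) and fell under PLX3397 (-1.26 ± 0.12, adjusted p = 4.81e-08) and both drugs (-1.58 ± 0.12, adjusted p = 4.75e-10). Fcrl1 fell in both comparisons at a low level, with 1.82 ± 0.567 TPM in Vehicle (-0.47 and -0.76, adjusted p = 0.0315 and 0.000338). Fcrlb and Fcer2a, near 1 TPM in every group, were called in neither, with log2 fold changes of -0.09 and 0.04 under both drugs. The median over the 5 tested was -0.17 in PLX3397+Anakinra against Vehicle, beside 0.01 over all genes.

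Of 10 receptors that signal through the same gamma chain, 4 were tested. Clec4d, a C-type lectin that senses mycobacterial lipid, was listed at 0 in all Sham mice and at 9.41 TPM ± 3.09 in Vehicle, and fell under PLX3397 (log2 fold change -0.77 ± 0.22, adjusted p = 0.0272) and both drugs (-1.13 ± 0.22, adjusted p = 0.000735). Clec4n, which encodes Dectin-2, was not called under PLX3397 (-0.20 ± 0.27, adjusted p = 0.727) and fell under both (-1.24 ± 0.27, adjusted p = 0.00188). Lilra5 and Oscar were not called in either comparison, with log2 fold changes of -0.36 and -0.09 under both drugs.

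Kinases and adaptors downstream of the receptors moved in the same direction as the receptors. Of 22 genes, 18 were higher and 1 was lower in Vehicle than in Sham, with a median log2 fold change of 1.63 beside -0.01 over all genes. Under PLX3397 17 of the 22 were lower than in Vehicle (median -0.90, beside 0.01 over all genes), and under PLX3397+Anakinra 17 were lower (median -1.07). Vav1, an exchange factor that acts in the phagocytic cup, went from 17.8 ± 2.62 TPM in Vehicle to 7.44 ± 0.891 under PLX3397 and 5.61 ± 0.935 under both (-1.15 ± 0.10 and -1.51 ± 0.10, adjusted p = 1.49e-08 and 1.27e-10). Rac2, a GTPase of phagocytes, went from 18.9 ± 2.47 to 8.35 ± 2.21 and 6.08 ± 1.37 TPM (-1.11 ± 0.15 and -1.50 ± 0.15, adjusted p = 9.99e-06 and 4.45e-08). Vav3 and Prkcd, at the other end of the list, were not called (0.13 and 0.22 under both drugs, adjusted p = 0.345 and 0.14), and Prkcd was the 1 gene lower in Vehicle than in Sham (-0.32 ± 0.11, adjusted p = 0.014). Anakinra alone lowered 1 of the 22, the Src family kinase Fyn (-0.21 ± 0.04, adjusted p = 0.0381), named after its value was seen.

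The inhibitory arm was split. Ptpn6 and Inpp5d encode the phosphatases SHP-1 and SHIP1, of which SHIP1 is the one recruited by FcγRIIB. Ptpn6 went from 4.24 ± 1.21 TPM in Sham to 41.7 ± 6.68 in Vehicle, 18.5 ± 3.69 under PLX3397 and 14.6 ± 2.20 under both (log2 fold changes against Vehicle -1.13 ± 0.14 and -1.45 ± 0.14, adjusted p = 1.65e-06 and 1.53e-08). Inpp5d went from 9.05 ± 0.979 to 35.6 ± 4.87, 14.3 ± 2.65 and 13.2 ± 1.02 TPM (-1.26 ± 0.10 and -1.36 ± 0.10, adjusted p = 5.45e-09 and 3.74e-10). Their more widely expressed relatives differed from them, since Inppl1 was not called under PLX3397 or both (adjusted p = 0.115 and 0.142) and Ptpn11 was higher under both (0.12 ± 0.04, adjusted p = 0.0194). Of the 7 genes of this list, 4 were lower under PLX3397 and 5 lower and 1 higher under both, with medians of -0.47 and -0.38.

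A list drawn up for other inhibitory receptors with an ITIM was lowered in the same 2 comparisons. Protein sequences were not used, so an ITIM was not checked for any gene of the list, Lilr4b and Cd33 included. All 12 were lower under PLX3397 (median -0.73) and all 12 under both drugs (median -1.13), and 11 of the 12 were higher in Vehicle than in Sham (median 1.66). Cd33, a sialic acid-binding lectin, went from 15.7 ± 2.61 TPM in Vehicle to 4.83 ± 1.09 under PLX3397 and 4.47 ± 1.13 under both, near its Sham level of 4.74 ± 0.402. Sirpa, the receptor for the "do not eat me" ligand CD47 and also a gene of neurons, had the smallest drop (-0.20 ± 0.04 under both, adjusted p = 0.000712), with Siglece next to it (-0.68 ± 0.15, adjusted p = 0.0018). Lilr4b (-0.88 ± 0.16, adjusted p = 0.0142) and Pirb (-0.78 ± 0.16, adjusted p = 0.0415) were the 2 of the 12 that were also lower under PLX3397+Anakinra than under PLX3397, Pirb being named after its value was seen.

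Genes of the actin machinery that builds the phagocytic cup were called lower in 9 of 14 under PLX3397 and in 9 of 14 under both, with smaller medians of -0.26 and -0.27. Myo1f, a myosin of leukocytes, and Lcp1, an actin bundler of leukocytes, had the largest drops under both drugs, at -1.61 ± 0.13 (adjusted p = 1.34e-09) and -1.58 ± 0.12 (adjusted p = 5.14e-10). The ubiquitous actin severing factor Cfl1, at 2009 TPM ± 89.8 in Vehicle, and the formin Fmnl1 were not called (-0.02 and 0.06, adjusted p = 0.782 and 0.605).

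Genes most like each receptor were sought by Pearson r of log2(TPM + 1) over the 24 libraries, which share groups, so that r describes the design as much as the gene. Fcer1g was most like C1qa (0.997), C1qb (0.996) and Fcrls (0.995), and Fcgr2b most like Ctss (0.995), Npc2 (0.994) and C1qb (0.993). Fcgr3 had an r of 0.990 with Ncf1 and 0.989 with Lair1. Fcgr1 was most like Treml2 (0.988), Pik3ap1 (0.987) and Ctss (0.986), and Fcgr4 most like Lilr4b, Tmem106a and Slc15a3 (0.989 each). Fcgrt was less like any gene, with Rrm1 (0.964), Ptgr1 (0.963) and Birc5 (0.961) first. On the deviations from the group means, which leave the design out, r was 0.847 for Treml2 with Fcgr1 and 0.912 for C1qa with Fcer1g. Ranked by these deviations, the first 3 genes for Fcgr1 were Ddx58 (0.895), Ifi204 (0.871) and Ifit3b (0.862), all known as interferon-stimulated genes, a ranking looked at after the values were seen. Among the 6 receptors, r over the 24 libraries ranged from 0.874 for Fcgr3 with Fcgrt to 0.990 for Fcgr2b with Fcer1g, and r of the deviations from 0.443 for Fcgr1 with Fcgrt to 0.787 for Fcer1g with Fcgrt.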

How the data were processed

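RNA of 24 mice was sequenced by the study after poly(A) selection, with 1 library per mouse and none pooled. The authors mapped reads to mm10 (GRCm38) in CLC Genomics Workbench and deposited TPM, which sum to 1000000 per library. As 93.4% to 93.9% of the values above 0 in a library were distinct, they are scaled by length and are not CPM. Read counts and depth are unknown, so precision rests on the spread between mice. Of 3 deposited tables, 2 were read. The full-precision table, which is also the one the genes were chosen from, was used, and the table rounded to within 0.001 TPM served as the alternative. The third, filtered table carries p-values and F values of the authors' own tests and was not used. Each mouse is a replicate.

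The 17267 genes whose TPM averaged 0.5 or more entered 1 linear model of log2(TPM + 1) over all 24 libraries, fitted by limma (version 3.58.1, R version 4.3.3) with a mean for each group and a trended variance. Called means a Benjamini-Hochberg adjusted p below 0.05 over all genes tested. The test was tried on simulated data first. Ratios were permuted exactly in Python 3.11.15. As Fcgr4 is listed at 0 in 1 Sham mouse, its ratio to Fcgr2b was not tested against Sham, which left 20 tests. The 6 genes and all lists were chosen with earlier results of these data known. From each pathway list, the 2 highest and 2 lowest fold changes in PLX3397+Anakinra against Vehicle are named, with B2m and, for likeness, the 3 genes of highest r, of which 1 is not reported here. Protein sequences were not used here. Alternatives were the pseudocount, the filter, median-ratio scaling, the table, the groups fitted, the variance trend, the call rule, a replicate block and leaving out each mouse.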

Additional observations from a re-analysis of the deposited data

Results flagged for a closer look

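Of 45 sets of values from 4 or 5 mice of 1 group, 8 held a mouse that stood apart from the rest by Dixon's criterion, where chance marks about 1 in 20. In Vehicle, mouse J17B was low for Fcgr2b (35.8 TPM) and therefore high for the ratios of Fcgr1 to Fcgr2b (0.656) and of Fcgr3 to Fcgr2b (1.99). In Sham, mouse J16 was high for Fcgr3 (15.9 TPM) and Fcgrt (32.1 TPM). PLX3397 mouse J02 was high for Fcer1g (189.0 TPM). PLX3397+Anakinra mouse J03 was high for Fcgr4 (7.81 TPM), and mouse J04 of this group was low for the ratio of Fcgr3 to Fcgr2b (1.60). These mice were kept, and no explanation was tested.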

How the results depend on the processing

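The count of members called kept its direction and stayed within 1.5 times its value in every comparison and alternative except in PLX3397+Anakinra against PLX3397, where leaving out 1 mouse gave between 0 and 2 members called against 0 with all mice. Without 1 mouse, the count was 5 to 6 in PLX3397+Anakinra against Vehicle and in PLX3397 against Anakinra, and did not move in the other 8 comparisons. Fcgr4 in PLX3397 against Anakinra missed the threshold with a pseudocount of 0.1 (adjusted p = 0.0874), and Fcgrt passed it in that comparison without PLX3397 mouse J02 (adjusted p = 0.0387). Scaling by the median ratio (factors 0.9749 to 1.0512) changed no count. Without PLX3397+Anakinra mouse J04, the ratio of Fcgr3 to Fcgr2b passed against PLX3397 and against Anakinra (log2 difference 0.56 and 0.30, exact permutation, adjusted p = 0.0397 in both). Both had the smallest p possible, which passes only where several ratios share it. Vehicle and PLX3397 mice share the numbers J01, J19 and J20 apart from a letter, and their deviations correlated at 0.173, -0.134 and -0.066. The values have no common sign, and without values of unmatched mice they cannot decide whether the numbers pair the mice. With the replicate block, fitted on these 3 pairs alone, 5 members were called, the same count as in the main fit of all 24 libraries. These pairs were not fitted without the block, so its effect on the count cannot be read. Vehicle and PLX3397+Anakinra share only the number J17 (r = 0.318), and no block can be fitted on 1 pair. The precision is limited by 4 or 5 mice per group and by the unknown depth, which matters most for Fcgr4 in Sham.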
